A study of Caenorhabditis elegans with 12 samples.

Results

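This report describes 299 MRG-1 binding sites of *Caenorhabditis elegans* that were called in all 3 ChIP-seq samples of *glp-4(bn2)* animals and in only 1 or 2 of the 3 samples of N2 animals. A site is a stretch of the genome in which peaks of the 6 samples overlap by at least 1 bp, and a sample calls a site that holds one of its peaks. Of 6369 sites on chromosomes II, III, IV, V and X, these 299 (4.69%) were chosen by their calls, 134 of them with 1 N2 call and 165 with 2 N2 calls. Sites with 3 *glp-4(bn2)* calls numbered 3371, and the 299 members made up 8.87% of these. The calls of both strains chose the members, so that the counts, fold ranks and widths from the same lists are given as descriptions, with no test. *glp-4(bn2)* animals carry the temperature-sensitive *bn2* allele of *glp-4* on chromosome I, and N2 is the wild-type Bristol strain. Whole worms of both strains were synchronized as first-stage larvae, grown at 25° and collected when most had reached the last larval stage, L4, and the same MRG-1 antibody was used for all samples. The labels give 15° for the maintenance of both strains. They do not say whether replicates are separate cultures, so that the spread between them may be technical. Strains and germline cannot be told apart here, since the comparison rests on 1 mutant strain.

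MRG-1 is the worm ortholog of mammalian MRG15, a chromodomain protein that is linked to chromatin carrying methylated lysine 36 of histone H3. It is known in *C. elegans* for roles in germline development and in silencing of X-linked genes in germ cells. N2 animals at the L4 stage have a proliferating germline, whereas *glp-4(bn2)* animals grown at the restrictive temperature have hardly any germ cells. The X chromosome is largely silent in the worm germline and is active in the soma. In chromatin of whole worms, fewer cells with MRG-1 at a site and less MRG-1 per cell cannot be told apart.

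Each sample had its own list of peaks, which the authors called separately per replicate with 0.05 as the highest q-value, in ce10 coordinates. The *glp-4(bn2)* lists held between 7303 and 7584 peaks and the N2 lists between 7073 and 7737 peaks, over all chromosomes. The lists give no read depth. The background level at which a list was called, recovered from its p-values in reads per base, was 68.9, 60.6 and 68.9 in *glp-4(bn2)* replicates 1, 2 and 3, and 96.8, 88.9 and 77.2 in N2 replicates 1, 2 and 3. The levels of the 2 strains did not overlap, and the N2 samples had the higher levels. The part of these levels in the results below was not tested. No ce10 genome or annotation was used here, so sites are named by position and neither genes nor sequences are assigned to them.

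Of the 299 members, 113 (37.8%, 95% Wilson interval 32.5 to 43.4%) lay on the X chromosome. Among sites called in all 6 samples the X share was 10.2% (279 of 2728, 9.15 to 11.4%), and among all sites of the 5 chromosomes it was 12.9% (821 of 6369). The X share of the members was thus above that of the sites called everywhere, and their intervals did not overlap. With 1 N2 call, 55 of 134 members lay on X (41.0%, 33.1 to 49.5%), and with 2 N2 calls, 58 of 165 (35.2%, 28.3 to 42.7%), intervals that overlap. The 344 sites of all 3 *glp-4(bn2)* samples and no N2 sample had a similar share of 35.2% (121 sites, 30.3 to 40.4%). The mirrored rule, all 3 N2 samples and 1 or 2 *glp-4(bn2)* samples, gave 388 sites (6.09% of all), of which only 3 lay on X (0.773%, 0.263 to 2.25%). Sites that leaned to *glp-4(bn2)* and sites that leaned to N2 thus differed in their X share by a wide margin. Intervals here and below cover counting error only, since sites share their 6 samples and neighbours share chromatin. The size of these shares depends on whole peaks being merged. When each peak was replaced by a window of 250 bp on each side of its summit, 795 sites met the rule and 16.4% of them lay on X, against 10.3% of sites called in all 6 samples and 8.19% under the mirrored rule.

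**Figure D1:**
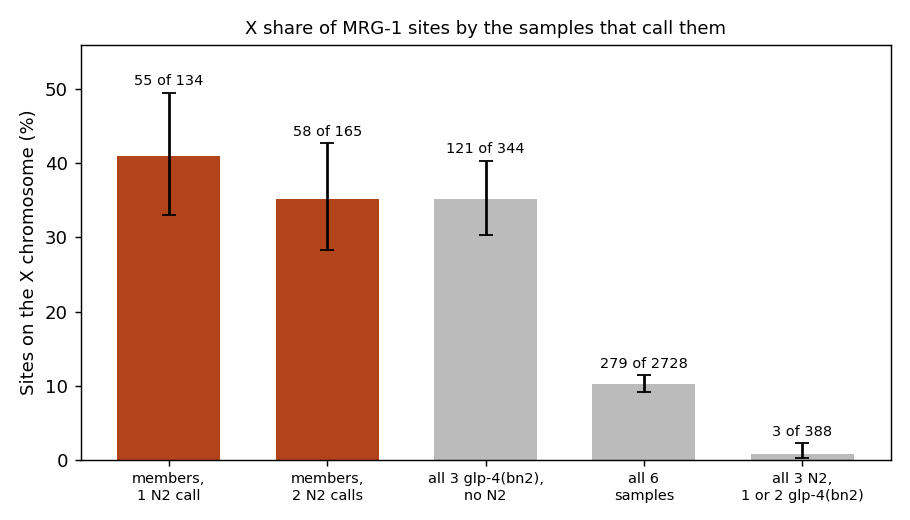
Share of MRG-1 sites on the X chromosome, in percent, for members with 1 and with 2 N2 calls (red) and for 3 other classes of sites (grey), named by the samples that called them. Bars are shares, error bars 95% Wilson intervals, and the numbers above give sites on X of all sites in the class. Members of both kinds stood at 41.0% and 35.2%, above the 10.2% of sites called in all 6 samples and the 0.773% of sites that leaned to N2.

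The other members were spread over the 4 autosomes used, with 60 on V, 49 on IV, 41 on II and 36 on III. Among the sites with 3 *glp-4(bn2)* calls, members made up 22.0% on X (113 of 513, 18.7 to 25.8%) and 6.51% on the autosomes (186 of 2858, 5.66 to 7.47%). Chromosome V had the largest autosomal share at 9.33%, followed by IV at 6.87%, II at 6.05% and III at 4.37%. X thus held more members per *glp-4(bn2)* site than any of these autosomes. By the number of N2 calls, the 513 X sites divided into 23.6% with none, 10.7% with 1, 11.3% with 2 and 54.4% with 3. The 2858 autosomal sites divided into 7.80% with none, 2.76% with 1, 3.74% with 2 and 85.7% with 3.

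Among sites of like rank in *glp-4(bn2)*, the share of members differed most between X and autosomes in 1 of 4 ranges of rank. The fold of a peak is its enrichment over the background of its own list, and its fold percentile is its rank by fold among all peaks of that list, in percent, so that 100 stands for the strongest peak. Sites with 3 *glp-4(bn2)* calls were grouped by their mean percentile over the 3 *glp-4(bn2)* lists. Between percentiles 25 and 50, members were 47.7% of 153 sites on X (40.0 to 55.6%) and 12.7% of 716 sites on autosomes (10.5 to 15.3%). In the same range, only 20.3% of the X sites but 72.5% of the autosomal sites were called in all 3 N2 samples. Between 50 and 75, members were 13.8% of 160 X sites (9.26 to 19.9%) and 7.61% of 736 autosomal sites (5.91 to 9.75%), and these intervals overlap. Below 25, they were 19.3% of 88 X sites and 13.8% of 268 autosomal sites, with overlapping intervals. There, 77.3% of the X sites and 39.2% of the autosomal sites had no N2 call. All 3 N2 samples called 3.41% of these X sites (1.17 to 9.55%) and 47.0% of these autosomal sites (41.1 to 53.0%). Above 75, where MRG-1 peaks were strongest, members all but vanished, with 1 of 112 X sites and 2 of 1138 autosomal sites. The intervals of the member shares on X and autosomes were thus apart only between percentiles 25 and 50. Those of the shares with all 3 N2 calls were apart below 25 as well. Of all 299 members, 54 had a mean percentile below 25, 164 between 25 and 50, 78 between 50 and 75, and 3 above 75.

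**Figure D2:**
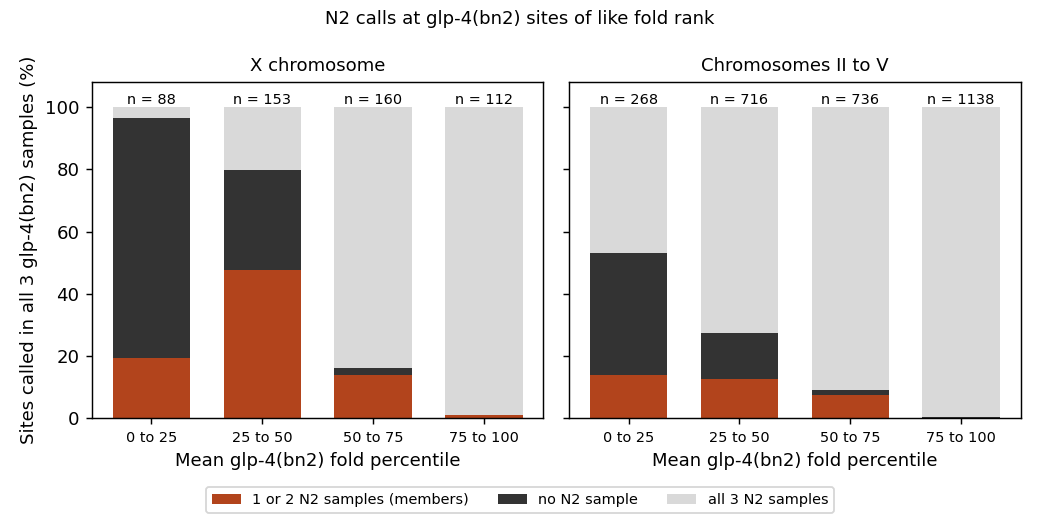
Sites called in all 3 *glp-4(bn2)* samples, in percent, by the number of N2 samples that call them, in 4 ranges of mean *glp-4(bn2)* fold percentile, for X (left) and chromosomes II to V (right). Red marks the members, with 1 or 2 N2 calls, black the sites with none and grey those with all 3, and n is the number of sites. Members reached 47.7% on X against 12.7% on the autosomes between percentiles 25 and 50, and were nearly absent above 75.

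The N2 calls of the members were spread unevenly over the N2 replicates. Over all members, N2 replicate 1 called 185 (61.9%, 56.3 to 67.2%), replicate 2 called 167 (55.9%, 50.2 to 61.4%) and replicate 3 called 112 (37.5%, 32.2 to 43.1%). Replicate 3 called fewest members. Its list of 7407 peaks was longer than the 7073 of replicate 2, but its peaks covered fewer bases. The lists covered 16.1, 17.6 and 15.4 Mb in N2 replicates 1, 2 and 3. Of their peaks on the 5 chromosomes, 3.5, 3.5 and 2.1% lay in members. The part of covered length in these counts was not tested. On X, replicate 1 called 78 of 113 members, replicate 2 called 56 and replicate 3 called 37. On autosomes, replicates 1, 2 and 3 called 107, 111 and 75 of 186 members. Replicate 2 thus called 49.6% of X members (40.5 to 58.6%) and 59.7% of autosomal members (52.5 to 66.5%), and replicate 1 called 69.0% of X members and 57.5% of autosomal members, with intervals that overlap between X and autosomes for both replicates.

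Where 1 N2 sample called a member, it was replicate 2 at 76 of 134 sites (56.7%, 48.3 to 64.8%), replicate 1 at 45 and replicate 3 at 13. Among the 861 other sites with 1 N2 call, replicate 2 was the caller at 74.6%, replicate 1 at 18.0% and replicate 3 at 7.43%. Lone calls of replicate 2 were therefore common in the whole series. Their share was lower among the members than among all other sites with 1 N2 call (71.6 to 77.4%), of which 648 had no *glp-4(bn2)* call. At the 79 other sites with 2 *glp-4(bn2)* calls it was 65.8% (54.8 to 75.3%), an interval that overlaps that of the members. With lists cut to equal length the share among the members was 71.8%, but the share at the other sites was not recomputed with these lists. On X, the lone caller was replicate 2 at 26 of 55 members (47.3%, 34.7 to 60.2%), replicate 1 at 25 and replicate 3 at 4. On autosomes it was replicate 2 at 50 of 79 members (63.3%, 52.3 to 73.1%), replicate 1 at 20 and replicate 3 at 9. At the other X sites with 1 N2 call, the lone caller was replicate 2 at 8 of 25 (17.2 to 51.6%), an interval that overlaps that of the X members. The intervals of X and autosomal members overlap for lone calls of replicate 2. The part of the large X share of the members in their lower share of such calls was not tested.

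Where 2 N2 samples called a member, replicates 1 and 3 called it without replicate 2 at 74 of 165 sites (44.8%, 37.5 to 52.5%). Replicates 1 and 2 shared 66 of these members, and replicates 2 and 3 shared 25. Among the 486 other sites with 2 N2 calls, replicate 2 was the one without a call at 27.8% (24.0 to 31.9%). At the 78 of these with 2 *glp-4(bn2)* calls it was 26.9% (18.3 to 37.7%), an interval whose upper end overlaps that of the members. On X, the pairs were 28 sites for replicates 1 and 3, 25 for 1 and 2, and 5 for 2 and 3, and on autosomes 46, 41 and 20. Among the few other X sites with 2 N2 calls, replicate 2 was missing at 15 of 20. These call patterns largely set how far the group shrinks when an N2 sample is left out, and it shrank most without N2 replicate 2. Without it, 151 sites were called in every *glp-4(bn2)* sample and in only 1 of the other 2 N2 samples, and 39.1% of these lay on X.

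**Figure D3:**
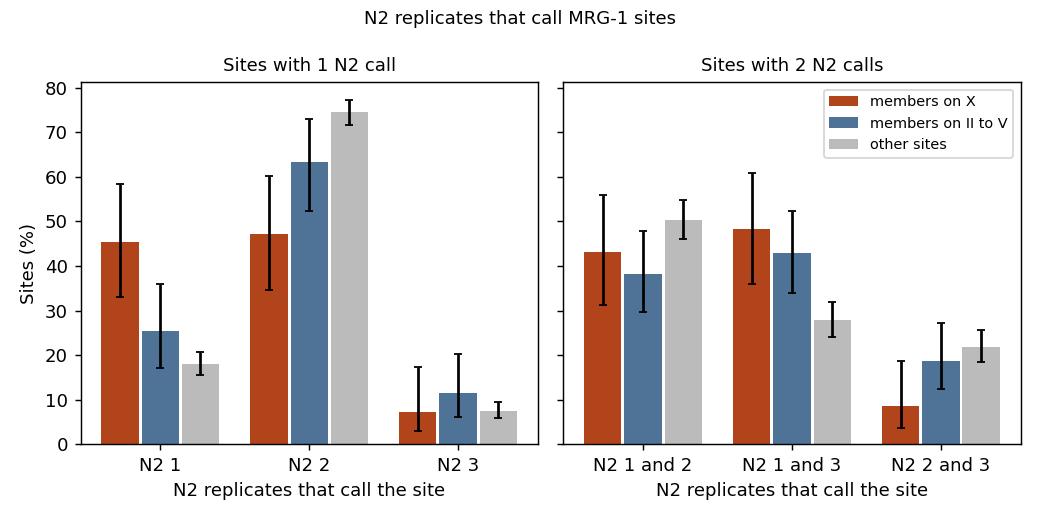
Share of sites, in percent, by the N2 replicates that call them, for sites with 1 N2 call (left) and with 2 N2 calls (right). Red bars are members on X, blue bars members on chromosomes II to V and grey bars all other sites with the same number of N2 calls, with 95% Wilson intervals. Replicate 2 was the lone caller at 74.6% of other sites and at 56.7% of members, and it was the missing one at 27.8% of other sites and at 44.8% of members.

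By fold rank, the members stood in the middle of the *glp-4(bn2)* lists and near the bottom of the N2 lists that called them. For a site with several peaks of a list, the peak of highest fold was used. The mean percentile over the members was 39.0, 43.0 and 39.0 in *glp-4(bn2)* replicates 1, 2 and 3, against 17.8, 18.1 and 18.7 in N2 replicates 1, 2 and 3. The lists of the strains did not overlap, and the strain means were 40.3 ± 2.3 for *glp-4(bn2)* and 18.2 ± 0.46 for N2 (SD, n = 3 lists each), a difference of 22.1. An N2 list without a call at a site has no percentile there, so the N2 values hold only for the lists that called. The N2 means are over different sites, 185, 167 and 112 in replicates 1, 2 and 3. Their SD is therefore not a spread between replicates at the same sites. On X alone the SD of the N2 means was 4.75, and on autosomes alone it was 1.90. For sites called in all 6 samples, the means were 67.6 in *glp-4(bn2)* and 68.6 in N2. Under the mirrored rule the order was reversed, with means of 23.3 in *glp-4(bn2)* and 35.7 in N2, a difference of −12.4. A lower rank in the strain with partial calls thus came with either rule. With windows around summits the difference for the members was 3.56.

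Members with 1 N2 call averaged 40.0 ± 2.19 in *glp-4(bn2)* and 11.7 ± 2.87 in N2, a difference of 28.3. Members with 2 N2 calls averaged 40.6 ± 2.44 in *glp-4(bn2)* and 20.5 ± 0.724 in N2 (SD, n = 3 lists each), a difference of 20.1. The groups were thus alike in *glp-4(bn2)* rank. They were apart in N2 rank, but the number of N2 calls itself sorted them, so this is no separate result. With 1 N2 call, the N2 means are over different sites, 45, 76 and 13 in replicates 1, 2 and 3. With 2 N2 calls, they are over 140, 91 and 99 sites that only partly coincide. In both groups the N2 SD is therefore not a spread between replicates at the same sites. In median fold, members with 1 N2 call reached 2.01, 2.17 and 2.06 in *glp-4(bn2)* replicates 1, 2 and 3, against 1.49, 1.60 and 1.56 in N2 replicates 1, 2 and 3. Members with 2 N2 calls reached 2.00, 2.19 and 1.99 in *glp-4(bn2)* replicates, against 1.67, 1.65 and 1.69 in N2 replicates. Folds are relative to the background of their own list, and lists were not scaled to each other. Sites of all 3 *glp-4(bn2)* samples with no N2 call ranked lower, with median percentiles of 23.8 to 28.4 in the *glp-4(bn2)* lists against 39.5 to 44.6 for the members.

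On X, the members averaged 39.6 in *glp-4(bn2)* and 17.1 in N2, and on autosomes 40.7 in *glp-4(bn2)* and 18.9 in N2. The difference between the strains at members was thus near equal on X and on autosomes, at 22.6 and 21.8. At sites called in all 6 samples it was 20.1 on X, with means of 68.0 in *glp-4(bn2)* and 47.9 in N2, and −3.45 on autosomes, with means of 67.6 and 71.0. X sites therefore ranked higher in *glp-4(bn2)* also where every sample called them, whereas autosomal sites called by every sample did not. The N2 lists differed among themselves at X members, with a median percentile of 11.7 in replicate 1, 5.68 in replicate 2 and 18.4 in replicate 3. At autosomal members the medians were 16.5, 17.6 and 11.5.

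**Figure D4:**
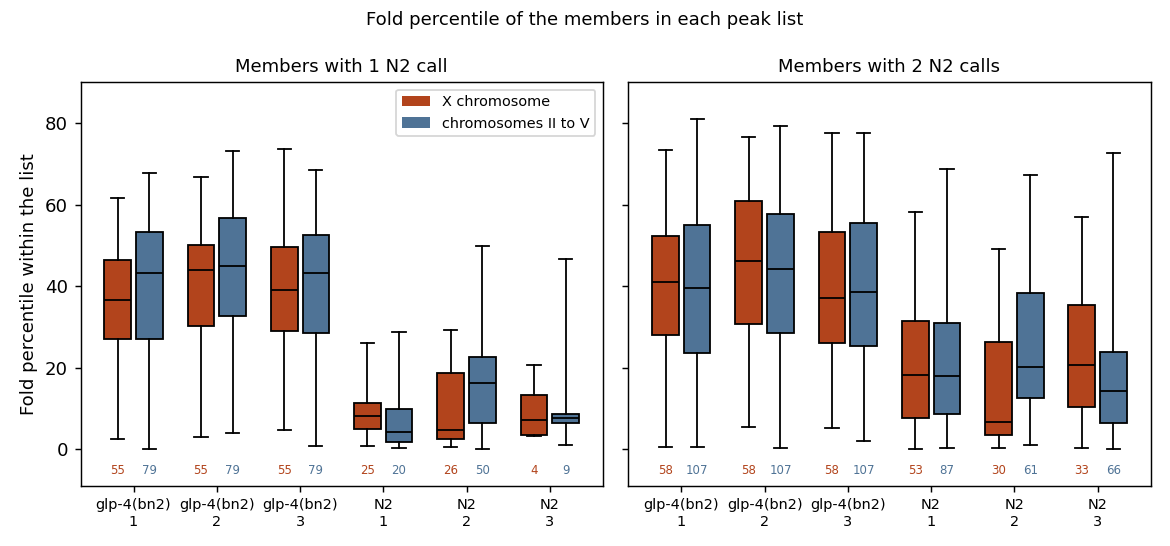
Fold percentile of the members within each peak list, by sample, for members with 1 N2 call (left) and with 2 N2 calls (right). Boxes show the quartiles and the median, whiskers the lowest and highest member, red the X chromosome and blue chromosomes II to V, and the numbers at the bottom count the members a list called. The medians lie between 36.6 and 46.1 in the *glp-4(bn2)* lists and between 4.16 and 20.7 in the N2 lists.

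Site by site, the order of the fold ranks is given as a description, since the calls of the same lists chose the members and favour higher *glp-4(bn2)* ranks. At 209 members (69.9%), every *glp-4(bn2)* percentile was above every N2 percentile, at 79 the values overlapped, and at 11 every *glp-4(bn2)* percentile was below. The first kind comprised 110 of 134 members with 1 N2 call (82.1%) and 99 of 165 with 2 N2 calls. It comprised 89 of 113 members on X (78.8%) and 120 of 186 on autosomes (64.5%). Among sites called in all 6 samples, every *glp-4(bn2)* percentile was above every N2 percentile at 17.6% and below at 25.4%, but above at 69.5% of those on X. X sites thus mostly had this order also where every sample called them. Fewer N2 values at a site make this order easier to meet, so that shares are not comparable between sites with 1, 2 and 3 N2 calls. The 11 members with the opposite order all lay on autosomes, 8 of them with 2 N2 calls, and were short, with a median width of 639 bp (420 to 1172 bp) against 1501 bp for the 209.

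The members named here are, on X and on autosomes and for each number of N2 calls, the 3 whose lowest *glp-4(bn2)* percentile was highest, with the lowest-ranked, widest and narrowest member of each call class. They are given to show the range that the class values summarise. Among members with 1 N2 call, the site at chrX:921126-924537 had folds of 2.47, 2.97 and 3.12 in *glp-4(bn2)* replicates 1, 2 and 3, against 1.84 in N2 replicate 2. These stood at percentiles 60.1, 66.5 and 73.5 of the *glp-4(bn2)* lists and at 29.2 of the N2 list. The N2 peak was 504 bp long inside a site of 3412 bp, with its summit at position 923765, and the *glp-4(bn2)* summits lay between 923550 and 923704. The site thus had 1 narrow N2 peak at the place where the broad *glp-4(bn2)* peaks were highest.

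The site at chrX:13975782-13977118 had folds of 2.43, 2.76 and 2.45 over *glp-4(bn2)* replicates 1, 2 and 3 and 1.47 in N2 replicate 2. The site at chrX:6241051-6242539 had folds of 2.31, 2.51 and 2.38 over *glp-4(bn2)* replicates 1, 2 and 3 and 1.47 in N2 replicate 1. Both N2 peaks stood near the bottom of their lists, at percentiles 4.58 and 5.33. On autosomes, the site at chrV:12101248-12103553 had folds of 2.81, 2.95 and 2.81 over *glp-4(bn2)* replicates 1, 2 and 3 and 1.82 in N2 replicate 2. The N2 summit there was at position 12103184 and the *glp-4(bn2)* summits between 12101694 and 12101969, so the N2 peak of highest fold lay at another place within the site. The site at chrV:14320969-14322467 had folds of 2.47, 2.71 and 2.56 over *glp-4(bn2)* replicates 1, 2 and 3 and 1.5 in N2 replicate 2. The site at chrV:640672-642903 had folds of 2.36, 2.84 and 2.60 over *glp-4(bn2)* replicates 1, 2 and 3 and 1.70 in N2 replicate 2. All 3 of these autosomal sites had their lone N2 call from replicate 2.

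The lowest-ranked member with 1 N2 call, at chrII:4433615-4434648, had folds of 1.25, 2.06 and 2.16 over *glp-4(bn2)* replicates 1, 2 and 3 and 1.46 in N2 replicate 1. Its membership rested on a peak of *glp-4(bn2)* replicate 1 at percentile 0.0672, with a −log10 q-value of 1.62. The widest, at chrIV:8589892-8594199, spanned 4308 bp and had folds of 2.64, 2.51 and 2.55 over *glp-4(bn2)* replicates 1, 2 and 3 and 1.73 in N2 replicate 2. There the N2 peak was itself 3112 bp long, and the *glp-4(bn2)* summits were spread between positions 8590474 and 8593673. The narrowest, at chrIII:3854037-3854510, spanned 474 bp and had folds of 2.57, 2.81 and 2.07 over *glp-4(bn2)* replicates 1, 2 and 3 and 2.21 in N2 replicate 3. At this site the N2 percentile of 46.6 was above the 42.8 of *glp-4(bn2)* replicate 3, so the strains overlapped.

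Among members with 2 N2 calls, the site at chrX:1452754-1453958 had folds of 3.04, 3.91 and 3.49 over *glp-4(bn2)* replicates 1, 2 and 3, against 2.03 and 2.3 in N2 replicates 1 and 2. Its 5 summits lay between positions 1453003 and 1453121, and the N2 peaks held 90.1% of the bases covered in all 3 *glp-4(bn2)* samples. The site was therefore called at 1 place in both strains, with higher folds in *glp-4(bn2)*. The site at chrX:5205619-5206990 had folds of 2.53, 3.75 and 2.83 over *glp-4(bn2)* replicates 1, 2 and 3, against 2.07 and 2.01 in N2 replicates 1 and 3. The site at chrX:12394044-12396984 had folds of 2.84, 3.03 and 2.50 over *glp-4(bn2)* replicates 1, 2 and 3, against 2.07 and 1.80 in N2 replicates 1 and 2. The strains did not overlap in percentile at any of these 3 X sites.

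On autosomes, the site at chrV:17536607-17538458 had folds of 3.74, 4.45 and 3.37 over *glp-4(bn2)* replicates 1, 2 and 3, against 2.27 and 2.23 in N2 replicates 1 and 3. The site at chrII:11172059-11176566 had folds of 4.12, 3.78 and 3.48 over *glp-4(bn2)* replicates 1, 2 and 3, against 1.54 and 2.13 in N2 replicates 1 and 2. Its 5 summits lay between positions 11176020 and 11176062, while the *glp-4(bn2)* peaks were 2324, 4211 and 2248 bp long and the N2 peaks 304 and 530 bp. The N2 lists that called the site thus had nearly the same summit as the *glp-4(bn2)* lists, with lower folds and shorter peaks. A difference in extent cannot be told apart here from a difference in fold. The site at chrV:10887931-10890315 had folds of 3.13, 3.37 and 2.78 over *glp-4(bn2)* replicates 1, 2 and 3, against 2.05 and 1.62 in N2 replicates 1 and 2. The widest member, at chrIV:12159269-12164268, spanned 5000 bp and had folds of 2.21, 2.43 and 1.97 over *glp-4(bn2)* replicates 1, 2 and 3, against 1.55 and 1.49 in N2 replicates 1 and 2. At the 4 sites of this paragraph every *glp-4(bn2)* percentile was above every N2 percentile.

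The other 2 named members went the other way or overlapped. The lowest-ranked member with 2 N2 calls, at chrIII:7652033-7652748, had folds of 1.43, 1.32 and 1.62 over *glp-4(bn2)* replicates 1, 2 and 3, against 1.93 and 1.57 in N2 replicates 1 and 3. Its percentiles were 1.60, 0.329 and 11.1 in the *glp-4(bn2)* lists and 33.7 and 8.48 in the N2 lists, which overlap. The narrowest member, at chrIII:11987349-11987768, spanned 420 bp and had folds of 1.71, 1.85 and 1.95 over *glp-4(bn2)* replicates 1, 2 and 3, against 2.00 and 2.00 in N2 replicates 1 and 2. It is one of the 11 members with every *glp-4(bn2)* percentile below every N2 percentile.

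The members were of intermediate width. The median site spanned 1367 bp (quartiles 951.5 and 1937 bp, range 420 to 5000 bp), with 1382 bp for members with 1 N2 call and 1354 bp for those with 2. Sites called in all 6 samples had a median of 3089 bp, sites of all 3 *glp-4(bn2)* samples with no N2 call 1036 bp, and sites that leaned to N2 838 bp. A site is a union over lists and grows with the number of lists that call it, so widths of single peaks were compared next. The median peak in the members was 872, 1178 and 853 bp long in *glp-4(bn2)* replicates 1, 2 and 3, against 478, 549 and 472 bp in N2 replicates 1, 2 and 3. In the whole lists, the median peak was 1018, 1130 and 974 bp long over *glp-4(bn2)* replicates 1, 2 and 3 and 963, 1059 and 940 bp in the N2 replicates. Peaks in the members were thus close to the usual length in *glp-4(bn2)* and short in N2. At sites that leaned to N2, the median peak was 413.5, 510 and 407 bp long in *glp-4(bn2)* replicates 1, 2 and 3. In the N2 replicates it was 558, 706 and 502.5 bp there. Short peaks in the strain with partial calls thus came with either rule. At members with 1 N2 call, the median N2 peak was 384, 503.5 and 361 bp long in replicates 1, 2 and 3, and with 2 N2 calls it was 520.5, 602 and 485 bp. The narrowest N2 peaks in the members were as long as the 300 bp to which the authors extended reads.

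**Figure D5:**
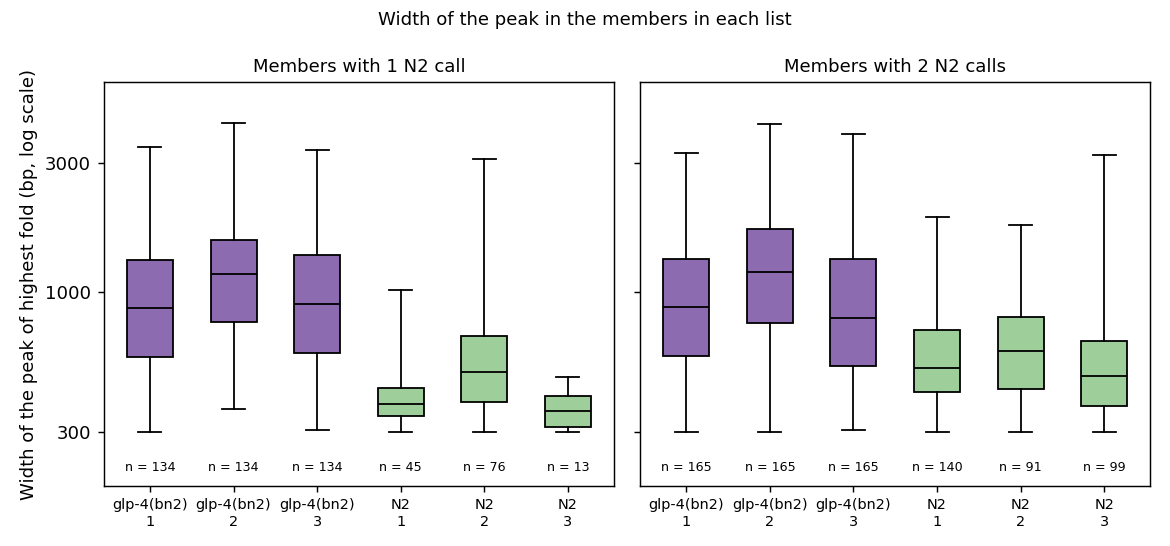
Width of the peak of highest fold in each member, in bp on a log scale, by sample, for members with 1 N2 call (left) and with 2 N2 calls (right). Boxes show the quartiles and the median, whiskers the narrowest and widest peak, purple the *glp-4(bn2)* lists and green the N2 lists, and n is the number of members the list called. Medians of the N2 lists lie between 361 and 602 bp, below every *glp-4(bn2)* list.

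By the rule, coverage is a union over 3 lists for *glp-4(bn2)* and over only 1 or 2 lists for N2, so that a larger *glp-4(bn2)* coverage is built in. Over all members, peaks of *glp-4(bn2)* samples covered 461 kb and peaks of N2 samples 218 kb. At the median member, *glp-4(bn2)* peaks covered 100% of the site and N2 peaks 49.8%. The N2 peaks lay wholly inside the *glp-4(bn2)* peaks at 248 of 299 members. In the bases that all 3 *glp-4(bn2)* samples covered, which may be called the core, N2 peaks held 73.3% at the median member. This share was 57.1% with 1 N2 call and 82.8% with 2 N2 calls, and the union of 2 lists can only be as large as or larger than either. In 6 members, all with 1 N2 call and 2 of them on X, the N2 peak missed the core altogether. There the N2 peak overlapped *glp-4(bn2)* peaks only outside the core.

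Most members held a single peak per list, at 79.9 to 92.0% of members in the *glp-4(bn2)* lists and at 89.8 to 93.8% of called members in the N2 lists. Over all pairs of lists, the median distance between N2 and *glp-4(bn2)* summits was no larger than that between *glp-4(bn2)* summits. For members with 1 N2 call, it was 132.5 bp between the strains (72 to 177 bp by pair of lists) and 150.5 bp within *glp-4(bn2)* (140 to 155 bp). For members with 2 N2 calls, it was 119 bp between the strains (102 to 149 bp), 131 bp within *glp-4(bn2)* (119 to 141 bp) and 109 bp within N2. Some pairs across the strains were thus farther apart than any pair within *glp-4(bn2)*. At sites called in all 6 samples it was 89, 87 and 64.5 bp, so summits were placed less closely at the members.

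Distances to the nearest peak of the N2 samples that did not call a member varied between classes. For members with 1 N2 call, the nearest peak of a list without a call lay a median of 6320, 6728 and 6532 bp away for N2 replicates 1, 2 and 3. For members with 2 N2 calls these medians were 1335, 6514 and 4976 bp, of 25, 74 and 66 sites. A peak of the list without a call lay within 500 bp at 5.41 to 12.1% of sites. Within 1000 bp, it did so at 9.92 to 17.2% of members with 1 N2 call. With 2 N2 calls, it did so at 11 of 25 members that replicate 1 did not call, at 16.2% of those that replicate 2 did not call and at 25.8% of those that replicate 3 did not call. The nearest site of all 6 samples lay a median of 7880 bp from a member, 15814 bp on X and 5435 bp on autosomes, against 1107.5 bp for sites that leaned to N2. Members were therefore farther from sites called everywhere than their mirrored counterparts, but 51.5% of them had some other site within 1000 bp.

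Along the chromosomes, the span between the first and the last peak was divided into 3 segments of equal length. The central segment held 33.6% of X members (25.6 to 42.7%) and 34.4% of autosomal members (28.0 to 41.5%), against 35.1% and 34.1% of the sites called in all 6 samples. Members were thus spread along the chromosomes much like the sites called everywhere. Only 16.1% of the autosomal sites that leaned to N2 lay in the central segment (12.8 to 20.1%).

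Many N2 calls of the members were weak ones. The weakest N2 call had a median −log10 q-value of 5.32 with 1 N2 call and 5.80 with 2 N2 calls, against 54.7 at sites called in all 6 samples. Its q-value was above 1e-05 at 61 members with 1 N2 call (45.5%) and at 62 with 2 N2 calls (37.6%), but at only 2.24% of sites called in all 6 samples. The *glp-4(bn2)* calls were further inside the threshold. The weakest had a median −log10 q-value of 9.73 with 1 N2 call and 9.34 with 2, against 5.63 at sites of all 3 *glp-4(bn2)* samples with no N2 call. Nearest to the threshold, the weakest N2 call had a −log10 q-value of 1.91 with 1 N2 call and 1.34 with 2, and just outside the rule the weakest N2 call of a site called in all 6 samples had 1.44. With only peaks of a q-value of at most 1e-05 in every list, 243 sites met the rule.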

How the data were processed

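MRG-1 ChIP-seq peak lists of 3 *glp-4(bn2)* and 3 N2 samples were used, and the 6 input samples were not analysed here. The authors mapped reads to ce10 with Bowtie2 (version 2.3.2) and called peaks per replicate with MACS2 (version 2.1.0) with 0.05 as the highest q-value and reads lengthened to 300 bp. The control is not given in the sources used here. The deposited lists give, per peak, its position and summit, a score derived from the q-value, the fold over the background, and p-values and q-values as −log10, all used as the authors deposited them. The score was not used in any result.

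Peaks were merged into sites by 1 bp of overlap, as stated with each result, with Python (version 3.11.15), numpy (version 2.4.6) and pandas (version 2.3.3). Fold percentiles were taken within each list over all its peaks. Background levels are the Poisson means that place 72.9 to 80.4% of the p-values up to a −log10 of 60 on whole numbers of reads, within 0.0001. Depth in reads is unknown. The site rules were tested on simulated lists. The rule for the named sites is given with them. Members, classes and sites to name were chosen with earlier results of these data known. Alternatives were stricter q-values, an overlap of 150 bp, summit windows, lists of equal length, calls on the core and leaving out each sample.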

Additional observations from a re-analysis of the deposited data

How the results depend on the processing

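No paired analysis was possible because the results come from no test and the labels do not tie replicate numbers across the strains. Of the values recomputed, only the difference in mean fold percentile can change sign, and it stayed positive under every alternative. Counts, shares and widths cannot change sign. A value counted as unchanged when it lay within the spread or interval of the reported one. Numbers of members have no interval and counted as unchanged within a fixed ratio to the reported number. With every sample kept, 54 of 68 values were unchanged by these rules and 14 moved. Most of these moved with windows reaching 250 bp to either side of the summits, which cut broad peaks into separate sites. With windows there were 795 members, 288 with 1 N2 call and 507 with 2. The X share was then 16.4%, with 20.5% for 1 N2 call and 14.0% for 2, the share of lone N2 calls from replicate 2 was 37.5%, the difference in mean fold percentile 3.56, and the median width 725 bp. The X share of sites leaning to N2 was 8.19% with windows. With lists cut to 7073 top peaks, the share of lone calls from replicate 2 was 71.8% and the median width 1513.5 bp. With a q-value of at most 1e-05, the difference in percentile was 19.3 and the median width 1568 bp. The alternatives for the X shares of sites called in all 6 samples and of sites leaning to N2 were chosen after seeing the data.

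Leaving out each sample gave between 151 and 410 members, with the lowest without N2 replicate 2 and the highest without *glp-4(bn2)* replicate 3. There were 159 to 192 members with 1 N2 call and 183 to 218 with 2, for *glp-4(bn2)* samples only, since without an N2 sample this split has no values. The X share ranged from 30.0 to 39.1%, from 30.7 to 41.0% with 1 N2 call and from 29.4 to 34.8% with 2. The share of lone calls from replicate 2 was 45.9% without N2 replicate 3 and 62.0% without N2 replicate 1. There a lone call came from 1 of only 2 N2 lists, so these values are not comparable with the reported share. Without any of the *glp-4(bn2)* samples, the share stayed within the interval of the reported one. The difference in percentile ranged from 16.3 to 26.1 and the median width from 1041 to 1372 bp. The X share of sites leaning to N2 was 2.41% without N2 replicate 2. Depth in reads is unknown, many N2 calls of the members lie near the q-value threshold, and the recovered background levels differ between the strains. The part of depth in the calls was not tested.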
